A study of Mus musculus with 6 samples.

Results

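Brca1, Brca2, Pik3ca, Myc, Rb1, Nf1, Arid1a and Akt2 are mouse counterparts of genes that are mutated, deleted or amplified in human ovarian cancer, and their expression was followed in 6 tumours. The members were chosen by gene symbol, on probe sets (the groups of probes read as 1 feature) to which the platform annotation gives exactly 1 symbol. This rule found 7 of the 8 genes, among 30142 genes tested in all. Arid1a lay on a probe set that the annotation also assigns to the microRNA gene Mir7227, so it has no value here. Where a gene had several such probe sets, the one of highest mean across the 6 arrays was used.

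The tumours grew from ID8-VEGF cells, a mouse ovarian surface epithelial cancer line made to produce vascular endothelial growth factor, which had been placed beneath the ovarian bursa, the membrane around the ovary. Late-stage tumours came from 3 mice (C1M3, C1M5 and C2M3), and each mouse gave 1 primary and 1 metastatic tumour. All 6 tumours carried the same cell line, no group without tumour cells is part of the comparison, and strain, age and the sites of the metastases are not given in the labels. Total RNA was measured on whole-transcriptome arrays, 1 array a tumour, and the study asks how metastatic tumours differ from primary tumours. The source name of 1 array, the primary tumour of C2M3, reads C2M2; its other labels name C2M3 and were followed.

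Genes of this kind act in a few growth and repair pathways. BRCA1 and BRCA2 guide the repair of DNA double-strand breaks by homologous recombination, and their inherited loss predisposes to ovarian cancer. PI3K alpha (Pik3ca) and AKT2 pass growth factor signals towards survival and growth, MYC is a transcription factor that drives growth, RB1 holds back entry into the cell cycle, neurofibromin (Nf1) switches RAS off, and ARID1A is a subunit of the SWI/SNF chromatin remodelling complex. The arrays read RNA levels and not mutations or copy number, and a bulk tumour holds tumour cells and host cells of the same species, so fewer cells of a type and less RNA per cell cannot be told apart. Values below are log2 intensities as normalised by the authors, on which a difference of 1 is a doubling, and they compare arrays for 1 gene but not genes with each other.

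Myc was the single member whose groups did not overlap. That is 1 of 7 with metastatic tumours lower, against 2.84% of all genes, and 0 of 7 with metastatic tumours higher, against 4.79%. In each of the 3 mice the metastatic level of Myc lay under the primary level, as for 8.64% of all genes. Nf1 had overlapping groups and was higher in every mouse, as were 11.1% of all genes, but in C1M5 by 0.01 only. Brca1, Brca2, Pik3ca and Rb1 all had their most deviant value in the primary tumour of C1M3, the first 2 at the top of the 6 arrays and the last 2 at the bottom. That tumour was the highest array for 28.9% and the lowest for 16.4% of all genes (ties not counted), against 2 of 7 members at each end, counts too small to set the members apart. Akt2 varied least. No member passed the test: with limma 0 of 7 had an adjusted p under 0.05, as did 0 of all 30142 genes (0% in either direction, smallest adjusted p = 0.407), and with limma at an unadjusted p under 0.05 there were 0 members against 1269 genes (4.21%), of which 2.88% of all genes were higher and 1.33% lower in metastatic tumours. With 6 arrays, their number sets how precise any of these values can be.

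Brca1 encodes the ubiquitin ligase subunit that acts at the start of break repair, and its log2 intensity in the primary and then the metastatic tumour was 5.61 and 5.02 in mouse C1M3, 4.99 and 4.97 in C1M5, and 4.74 and 4.83 in C2M3. The primary tumour of C1M3 stood above the other 5, which spanned 4.74 to 5.02, and the groups overlapped. The primary mean was 5.11 ± 0.45 (SD, n = 3) and the metastatic mean 4.94 ± 0.10, which differ by -0.17 (SE 0.24, 95% interval -0.79 to 0.45, limma adjusted p = 0.866). Within C1M3, C1M5 and C2M3 the metastatic tumour differed by -0.59, -0.02 and 0.09, so the mean rests on C1M3. Leaving out the C1M3 primary tumour gave 0.08, of the opposite sign. Brca1 was a dim probe set: in 6 of 6 arrays it lay below the brightest of the 23 background control probe sets, which differ in GC content, and in 3 of 6 it lay above the array's median gene.

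Brca2 encodes a protein that acts at the strand exchange step of break repair. Its primary and metastatic log2 intensities were 6.92 and 6.43 in C1M3, 6.23 and 6.42 in C1M5, and 6.42 and 6.04 in C2M3. As for Brca1, the primary tumour of C1M3 was highest, at 0.61 above the mean of the other 5 arrays for Brca2 and 0.70 for Brca1. The lowest value was the metastatic tumour of C2M3, and 3 arrays between 6.42 and 6.43 did not differ beyond the spread. Primary tumours averaged 6.52 ± 0.35 (SD, n = 3) and metastatic tumours 6.30 ± 0.23, a difference of -0.23 (SE 0.22, 95% interval -0.79 to 0.34, limma adjusted p = 0.842). Metastatic minus primary was -0.48 in C1M3, 0.19 in C1M5 and -0.38 in C2M3, and the group difference shrank to -0.03 once the C1M3 primary tumour was left out. Brca2 lay above the brightest background control probe set in 4 of 6 arrays, the exceptions being the C1M5 primary and the C2M3 metastatic tumour.

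Promoter sequence upstream of RefSeq gene starts was examined because Brca1 and Brca2 shared their highest array while Pik3ca had its lowest there. Of the 7 measured members 5 had entries in the RefSeq promoter table of GRCm38.p6 (8 windows), and Myc and Rb1 had none. The 250 bases before each start were searched on both strands for the E2F words TTTCCCGC, TTTGGCGC, TTTCGCGC and TTTGCCGC, for the cyclic AMP response element TGACGTCA and its 5-base part TGACG (which lies inside it), and for CCAAT. The windows of Brca1 (chr11:101551956-101552205, minus strand) and Pik3ca (chr3:32396815-32397064, plus strand) are shown with every match to TGACG or CCAAT in capitals; neither holds an E2F word.
Brca1: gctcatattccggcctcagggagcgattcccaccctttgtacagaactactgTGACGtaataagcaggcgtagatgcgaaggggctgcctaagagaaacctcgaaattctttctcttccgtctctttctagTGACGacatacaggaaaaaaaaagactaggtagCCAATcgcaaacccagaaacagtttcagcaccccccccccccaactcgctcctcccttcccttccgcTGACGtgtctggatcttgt
Pik3ca: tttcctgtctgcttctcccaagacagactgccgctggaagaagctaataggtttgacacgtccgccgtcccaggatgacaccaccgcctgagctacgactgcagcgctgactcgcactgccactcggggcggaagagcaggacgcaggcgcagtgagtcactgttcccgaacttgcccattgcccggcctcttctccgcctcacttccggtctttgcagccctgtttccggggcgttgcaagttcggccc
For Brca2, which lies on the plus strand, only 30 bases around 2 matches are shown, an E2F word read on the minus strand (chr5:150522442-150522471) and a full TGACGTCA (chr5:150522590-150522619), in capitals.
Brca2, E2F word: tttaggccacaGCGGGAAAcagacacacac
Brca2, TGACGTCA: tcgcggggtcaTGACGTCAcgggcagagcg

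An E2F word was present in the 250 bases of 1.86% of 32851 windows in the table, and TGACGTCA in 1.55%. The shorter words are common, TGACG in 17.8% and CCAAT in 33.8% of windows. Brca1 held 3 matches to TGACG and 1 to CCAAT, and Pik3ca and Nf1 held none of the words searched. Of the 4 windows of Akt2, 2 held TGACG. These matches describe letters in the windows and were not tested against the expression values.

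Repair partners of BRCA1 and BRCA2 moved little between the groups. Of 40 listed genes of homologous recombination and the Fanconi anaemia pathway 34 were measured. None passed the limma test in either direction; 22 had a lower and 10 a higher mean in metastatic tumours and 2 (Fancm and Slx4) read the same in all 6 arrays, where 43.9% of all genes and 44.7% of those above the median level had a lower mean, and the median difference was -0.05 against 0.02 over all genes. By array, 21 of the 34 had their highest value in the primary tumour of C1M3, against the 28.9% of all genes, ties again not counted. The list mean was 6.34 in that tumour and 6.03 to 6.17 in the other 5, and without that tumour the median difference was 0.04. Leaving out the C1M5 primary, the C2M3 primary or the C1M3 metastatic tumour gave -0.092, -0.085 and -0.086, and the C2M3 metastatic tumour 0. Topbp1, which activates the checkpoint kinase ATR, differed by -0.50 (SE 0.34), Fancl, the ligase of the Fanconi core complex, by -0.20 (SE 0.21) and the helicase gene Brip1 by -0.16 (SE 0.30).

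**Figure D1:**
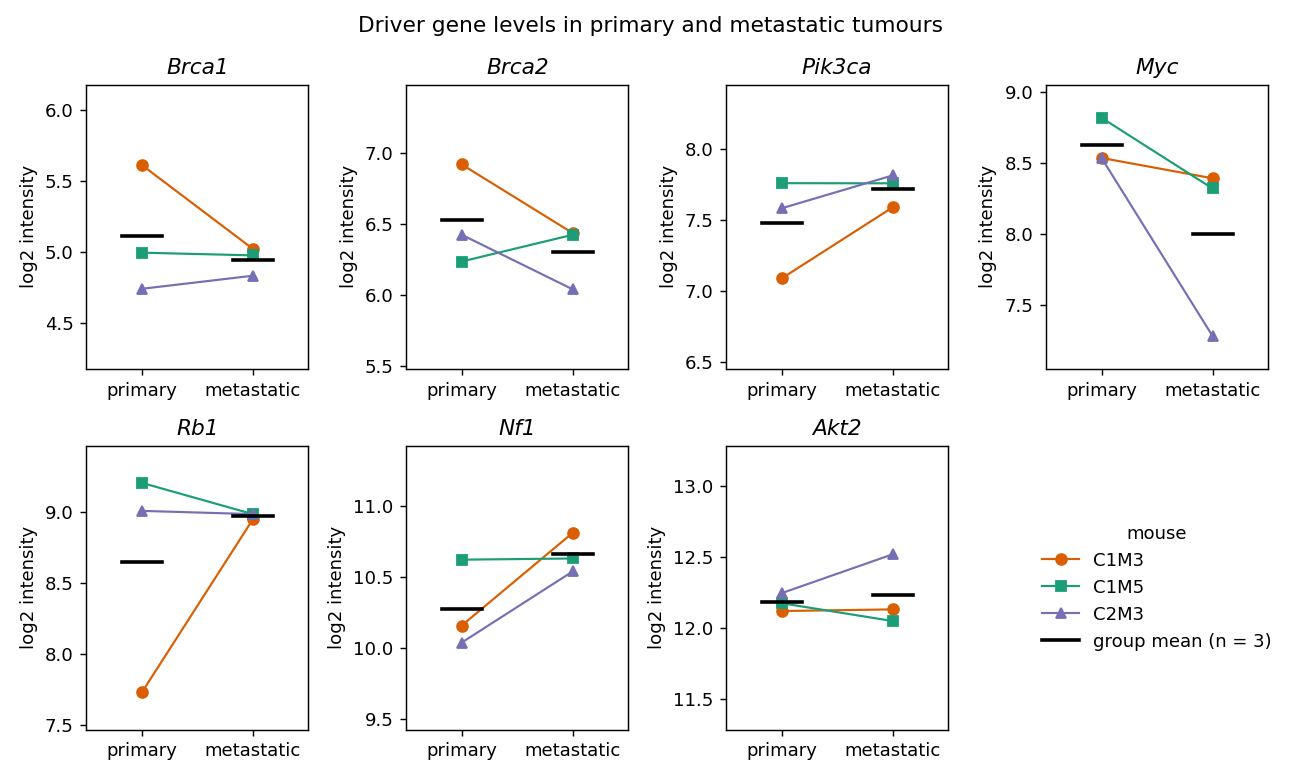
Log2 intensity of the 7 measured driver genes in each primary and metastatic tumour, with a line joining the tumours of a mouse, a black bar at each group mean and a vertical span of 2 log2 units in every panel. The primary tumour of C1M3 is the highest point for Brca1 (5.61) and Brca2 (6.92) and the lowest for Pik3ca (7.09) and Rb1 (7.73), and all 3 lines of Myc run downward.

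Pik3ca encodes the catalytic subunit p110 alpha of PI3K, which makes the lipid signal that recruits AKT to the membrane. Primary and metastatic log2 intensities were 7.09 and 7.59 in C1M3, 7.76 and 7.76 in C1M5, and 7.58 and 7.82 in C2M3. The primary tumour of C1M3 was lowest and the other 5 arrays lay between 7.58 and 7.82. Primary and metastatic means were 7.48 ± 0.35 (SD, n = 3) and 7.72 ± 0.12, a difference of 0.24 (SE 0.19, 95% interval -0.25 to 0.74, limma adjusted p = 0.842). The metastatic tumour was higher by 0.50 in C1M3 and by 0.23 in C2M3, and differed by -0.001 in C1M5. Without the primary tumour of C1M3 the group difference was 0.05.

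Akt2 encodes an AKT kinase isoform known for its part in insulin signalling and amplified in some ovarian cancers. It read 12.12 in the primary and 12.13 in the metastatic tumour of C1M3, 12.17 and 12.05 in C1M5, and 12.24 and 12.52 in C2M3. The metastatic tumour of C2M3 was highest and the other 5 lay within 12.05 to 12.24. The range over the 6 arrays was 0.47, the narrowest of the 7 members, and 45.0% of all genes had a smaller SD over the arrays. The group means of 12.18 ± 0.06 (SD, n = 3) and 12.23 ± 0.25 differed by 0.05 (SE 0.14, 95% interval -0.30 to 0.41, limma adjusted p = 0.933). Within mice the difference was 0.01 in C1M3, -0.13 in C1M5 and 0.27 in C2M3. Its sign is not settled, since leaving out the C2M3 metastatic tumour gave -0.09 and centring each array on its median gave -0.05.

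Of 28 other genes of PI3K, AKT and mTOR signalling 25 were measured and 0 passed the limma test in either direction. The metastatic mean was lower for 17 (against 43.9% of all genes) and higher for 7, and Akt1 read the same in all 6 arrays. The median difference of -0.10 ranged from -0.23 without the metastatic tumour of C1M3 to -0.06 without the primary tumour of C1M5 when single arrays were left out. It was lower, too, without the C1M5 metastatic tumour (-0.18) or the C1M3 or C2M3 primary tumour (each -0.21). Both adaptors of the insulin receptor on the list were at the lower end, Irs2 at -0.95 (SE 0.59) and Irs1 at -0.83 (SE 0.51), together with Pik3r1, the regulatory subunit p85 alpha, at -0.69 (SE 0.49). In C1M3, C1M5 and C2M3 the difference was 0.26, -0.76 and -2.35 for Irs2, -0.05, -1.28 and -1.17 for Irs1, and 0.17, -0.95 and -1.29 for Pik3r1. The wide values are thus those of C1M5 and C2M3. The mean of 13 measured fat cell markers in the primary and metastatic tumour was 5.82 and 5.96 in C1M3, 8.77 and 5.94 in C1M5, and 10.73 and 5.54 in C2M3, and the part of fat cells in these differences was not tested.

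Myc read 8.54 in the primary and 8.39 in the metastatic tumour of C1M3, 8.82 and 8.32 in C1M5, and 8.54 and 7.28 in C2M3, as log2 intensities. All 3 primary tumours lay above all 3 metastatic tumours, and the metastatic tumour of C2M3 stood apart at the low end. The primary mean was 8.63 ± 0.16 (SD, n = 3) and the metastatic mean 8.0 ± 0.62, or 1.55-fold higher in primary tumours on the back-transformed scale. The difference of -0.63 (SE 0.33, 95% interval -1.49 to 0.23) did not pass, with limma adjusted p = 0.842. An exact two-sided permutation test, run on each measured member without regard to mouse, gave p = 0.1 for Myc, the smallest that 3 arrays against 3 allow. Any gene whose groups do not overlap gets this value, so it adds nothing to the absence of overlap. Within mice the differences had 1 sign and varied widely, with -0.14 in C1M3, -0.50 in C1M5 and -1.25 in C2M3.

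The difference of Myc kept its sign in every refit and was -0.27 without the metastatic tumour of C2M3. The mouse block, the filter on dim genes and averaged probe sets leave the difference of Myc unchanged, so these could not alter its sign. Groups that did not overlap were found in 1 of 7 members with metastatic tumours lower, against 2.84% of all genes, and in 0 of 7 with metastatic tumours higher, against 4.79%, and a lower metastatic value in all 3 mice in 1 of 7 and in 8.64%. With 7 members a single gene sets that share. The proliferation list, 24 measured genes of cell division and DNA replication, was also lowest in the metastatic tumour of C2M3, with a mean of 7.05 there against 7.61 to 9.10 in the other 5 arrays. The highest array was the primary tumour of C1M3 for the proliferation list and that of C1M5 for Myc. The part of proliferation in the Myc difference was not tested.

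The MYC network list had 28 symbols, of which Mycl1, Miz1, Cdk9 and Nop56 matched no measured gene. Of 24 measured genes 17 had lower means (against 43.9% of all genes) and 7 higher means. The median difference was -0.17 and 0 genes passed the limma test. Leaving out the C1M3 primary tumour brought the median to -0.04, and leaving out the C2M3 metastatic tumour brought it to -0.09. Mxd4, a MAX partner that opposes MYC, differed by -0.46 (SE 0.21), with groups that did not overlap; it differed by -0.16 in C1M3, -0.56 in C1M5 and -0.66 in C2M3. Mlxipl, the glucose-sensing factor of the network, differed by -0.43 (SE 0.42) and Ldha, which encodes a lactate dehydrogenase subunit often listed as a MYC target, by -0.43 (SE 0.56). In this list 2 of 24 genes had groups that did not overlap with metastatic tumours lower (2.84% of all genes) and 1 with metastatic tumours higher (4.79% of all genes). The last was Mnt, a repressor in the network, at 0.24 (SE 0.16), named after its values were seen.

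**Figure D2:**
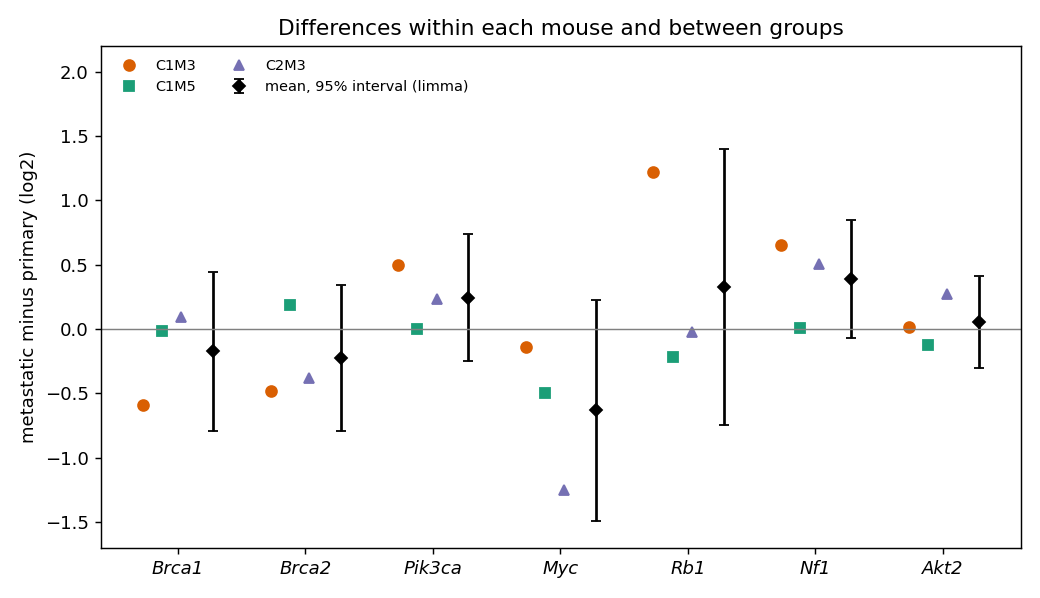
Metastatic minus primary log2 difference of each driver gene within mice C1M3, C1M5 and C2M3 (coloured points), and the difference of the group means with its 95% interval from limma (black diamonds). All 7 intervals include 0, Myc lies below 0 in every mouse, and the value of C1M3 is farthest from 0 for Rb1 at 1.22.

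Rb1 encodes the retinoblastoma protein, which binds E2F factors and keeps cells from starting DNA synthesis. It had the widest contrast between 1 tumour and the rest. Primary and metastatic log2 intensities were 7.73 and 8.95 in C1M3, 9.20 and 8.98 in C1M5, and 9.01 and 8.98 in C2M3. The primary tumour of C1M3 lay 1.30 below the mean of the other 5, which spanned 8.95 to 9.20. Primary tumours averaged 8.65 ± 0.80 (SD, n = 3) and metastatic tumours 8.97 ± 0.02, a difference of 0.33 (SE 0.42, 95% interval -0.75 to 1.40, limma adjusted p = 0.858).

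Within mice the difference of Rb1 was 1.22 in C1M3, -0.22 in C1M5 and -0.02 in C2M3. The group difference turned to -0.13 when the C1M3 primary tumour was left out. Rb1 was also the single member with several probe sets, 3 in number, and these disagreed. The other 2 were dim, with means over the arrays of 4.83 and 4.35 against 8.81 for the one used. On the brighter of these the primary tumour of C1M3 read 5.07, between 4.70 in C1M5 and 5.32 in C2M3, and on the other it read 4.33, between 4.20 and 4.39. The low value of Rb1 in the primary tumour of C1M3 was thus seen on the brightest probe set and not on the 2 dim ones, and the mean of all 3 probe sets gave a group difference of 0.0007.

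The RB and E2F pathway list had 29 of 30 genes measured. Of these 25 had a lower mean in metastatic tumours (against 43.9% of all genes) and 4 a higher mean. The median difference was -0.11 and 0 genes passed the limma test; the median became -0.02 without the C1M3 primary tumour, -0.03 without the C2M3 metastatic tumour, and -0.19 and -0.20 without the C2M3 primary and the C1M3 metastatic tumour. Ccnd2, which encodes cyclin D2, a partner of the kinases that inactivate RB1, differed by -1.34 (SE 1.29) with overlapping groups. Like 8.64% of all genes it was lower in every mouse, at -1.15 in C1M3, -1.43 in C1M5 and -1.44 in C2M3. With the mouse as a block its SE was 0.09 and its unadjusted p by limma 0.0006 in place of 0.348, with adjusted p = 0.841. Cdkn1a, the gene of the cell cycle inhibitor p21, differed by -0.66 (SE 0.99). Rbl2, an RB1 relative also called p130, differed by 0.43 (SE 0.26), with 0.54 in C1M3, -0.07 in C1M5 and 0.82 in C2M3. In this list 16 of 29 genes were highest in the primary tumour of C1M3, against 28.9% of all genes (ties not counted).

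Nf1 encodes neurofibromin, a GTPase-activating protein for RAS. Its primary and metastatic log2 intensities were 10.16 and 10.81 in C1M3, 10.62 and 10.63 in C1M5, and 10.04 and 10.54 in C2M3. The primary tumours of C1M3 and C2M3 were low, and the primary tumour of C1M5 lay among the metastatic tumours, so that the groups overlapped. Means were 10.27 ± 0.31 (SD, n = 3) for primary and 10.66 ± 0.14 for metastatic tumours, or 1.31-fold higher in metastatic tumours on the back-transformed scale. The difference of 0.39 (SE 0.18, 95% interval -0.07 to 0.85) did not pass, with limma adjusted p = 0.842. It was 0.65 in C1M3, 0.01 in C1M5 and 0.50 in C2M3. In C1M5 the median over all genes was itself higher in the metastatic array, at 5.08 against 4.90 in the primary array. A higher metastatic value in all 3 mice was found in 1 of 7 members and in 11.1% of all genes. The difference ranged from 0.27 without the primary tumour of C2M3 to 0.56 without that of C1M5 when single arrays were left out.

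The list of RAS regulators and MAPK genes around Nf1 had 24 of 30 genes measured. Of these 15 had a lower mean in metastatic tumours (against 43.9% of all genes) and 9 a higher mean. The median difference was -0.07 and 0 genes passed the limma test. Leaving out single arrays took that median to 0.0015 (C2M3 metastatic tumour), -0.04 (C1M3 primary), -0.13 (C1M3 metastatic) or -0.14 (C2M3 primary), so its sign was not kept. Dusp4, a phosphatase that MAPK signalling induces, differed by -1.30 (SE 0.66). Like 8.64% of all genes it was lower in every mouse, with -1.71, -0.66 and -1.52 in C1M3, C1M5 and C2M3. The feedback inhibitor Spry2 differed by -0.73 (SE 0.46) and the transcription factor gene Etv5 by -0.47 (SE 0.48). Spred1, which recruits neurofibromin to the membrane and was named after its values were seen, differed by 0.43 (SE 0.08). Its groups did not overlap, with metastatic tumours higher as for 4.79% of all genes. Its unadjusted p by limma was 0.0026 and its adjusted p = 0.842. With the mouse as a block its SE was 0.09 and its unadjusted p 0.0191 (limma, adjusted p = 0.841).

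Arid1a has no value here, and its complex is described by 27 measured genes. The SWI/SNF list had 28 symbols, of which Gltscr1 matched no measured gene. Of these 21 had a lower metastatic mean (against 43.9% of all genes) and 5 a higher one, and Actl6b read the same in all 6 arrays. The median difference was -0.07 and 0 genes passed the limma test. The median was -0.11 without the C2M3 primary tumour and -0.04 without that of C1M5. Smarcc1, a core subunit, differed by -0.47 (SE 0.32), the ATPase gene Smarca4 by -0.32 (SE 0.13) and Smarcd1, another core subunit, by -0.26 (SE 0.10). Each was lower in all 3 mice, as were 8.64% of all genes. Among these 3 only the groups of Smarcd1 did not overlap, with metastatic tumours lower as for 2.84% of all genes. Arid1b, the paralogue of Arid1a, named after its values were seen, differed by -0.25 (SE 0.09).

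Of other genes known as drivers in ovarian cancer 36 were listed and 27 measured. Means were lower for 21 (against 43.9% of all genes) and higher for 5, with Akt1 the same in all 6 arrays. The median difference was -0.06 and 0 genes passed the limma test. The median was -0.03 without the C1M3 primary tumour and -0.04 without that of C1M5. Some of them also belong to the lists above. Erbb2, the receptor tyrosine kinase HER2, differed by -0.53 (SE 0.16). Its groups did not overlap, with metastatic tumours lower as for 2.84% of all genes. Its within-mouse values lay close together at -0.51, -0.59 and -0.50 in C1M3, C1M5 and C2M3. Its unadjusted p by limma was 0.0213 and its adjusted p = 0.842, against 0.0021 and 0.841 with the mouse as a block. Pik3r1 and Smarca4, given above, were the other 2 with the widest differences. Trp53 and Ctnnb1 were not measured under the rule.

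**Figure D3:**
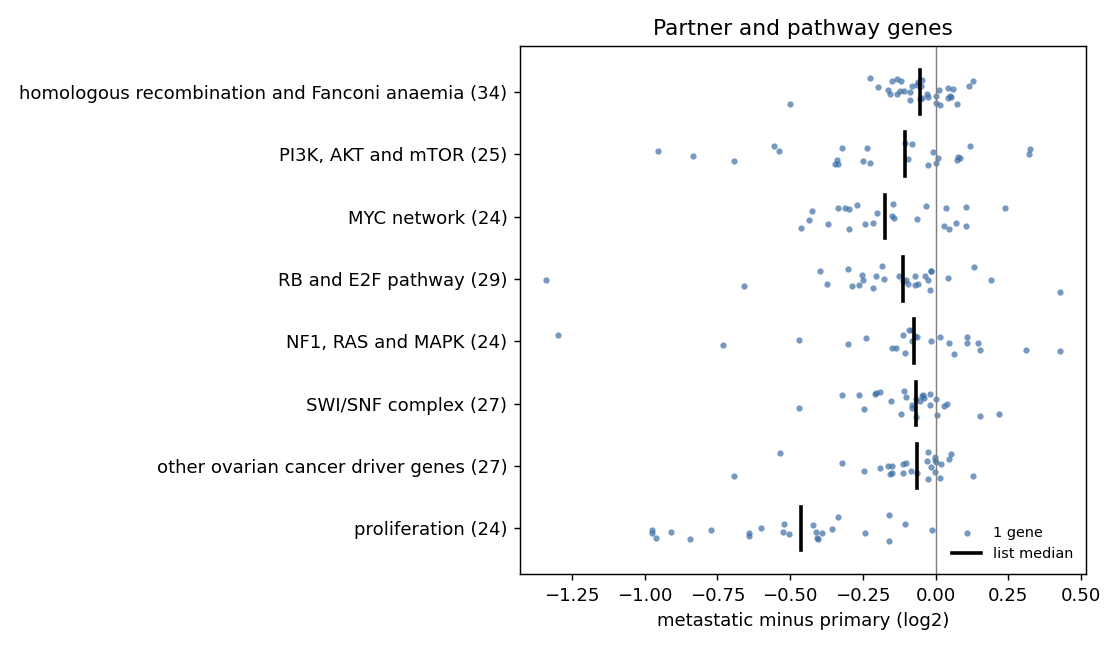
Metastatic minus primary log2 difference of every measured gene in 8 pathway lists (points, with the number of genes in brackets and random vertical offset) and the median of each list (black bar). Medians lie between -0.17 and -0.05 except for proliferation at -0.46, and single genes such as Ccnd2 (-1.34) and Dusp4 (-1.30) lie far from their lists.

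Over the 8 lists 201 distinct genes were measured and 0 passed the limma test. At an unadjusted p under 0.05 by limma there were 7 of them (3.48%), close to the 4.21% of all genes, namely Foxo3, Pik3r2, Arid1b, Smarca4 and Erbb2 on the lower side and E2f3 and Spred1 on the higher side. With the mouse as a block there were 12 of the 201, against 1485 of all 30142 genes. All 8 list medians were below the 0.02 of all genes. Centring each array on its median moved the difference of the median gene by -0.11, to -0.09, and the share of all genes with a lower metastatic mean from 43.9% to 69.6%, so list shares of lower means depend on the scale of the arrays.

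The primary tumour of C1M3, in which Brca1, Brca2, Pik3ca and Rb1 deviated most, also stood apart in proliferation, macrophage and fibroblast genes. All 24 measured proliferation genes had their highest value there, with a list mean of 9.10 against 7.05 to 8.03 in the other 5 arrays. All 14 macrophage markers had their lowest value there, with a mean of 6.21 against 7.63 to 8.40, as did 8 of 9 fibroblast markers, with 6.84 against 7.94 to 9.53. The other host cell lists had smaller shares of markers lowest there. These were 5 of 10 T cell, 4 of 10 smooth muscle, 4 of 12 endothelial and 4 of 13 adipocyte markers. For B cells it was 2 of 7, and for granulosa, theca and luteal genes 2 of 12. Of all genes, 28.9% had their highest and 16.4% their lowest value there (ties not counted). Markers of ovarian surface epithelium and mesothelium, the source of ID8 cells, were above the median level in 12 of 12 cases, with list means of 9.62 in this tumour and 9.65 to 11.26 in the others. The proliferation genes had a median difference between the groups of -0.46, and of -0.01 without the primary tumour of C1M3, -0.21 without the C2M3 metastatic and -0.74 without the C2M3 primary tumour. The part of proliferation or of host cell content in the member values of this tumour was not tested.

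**Figure D4:**
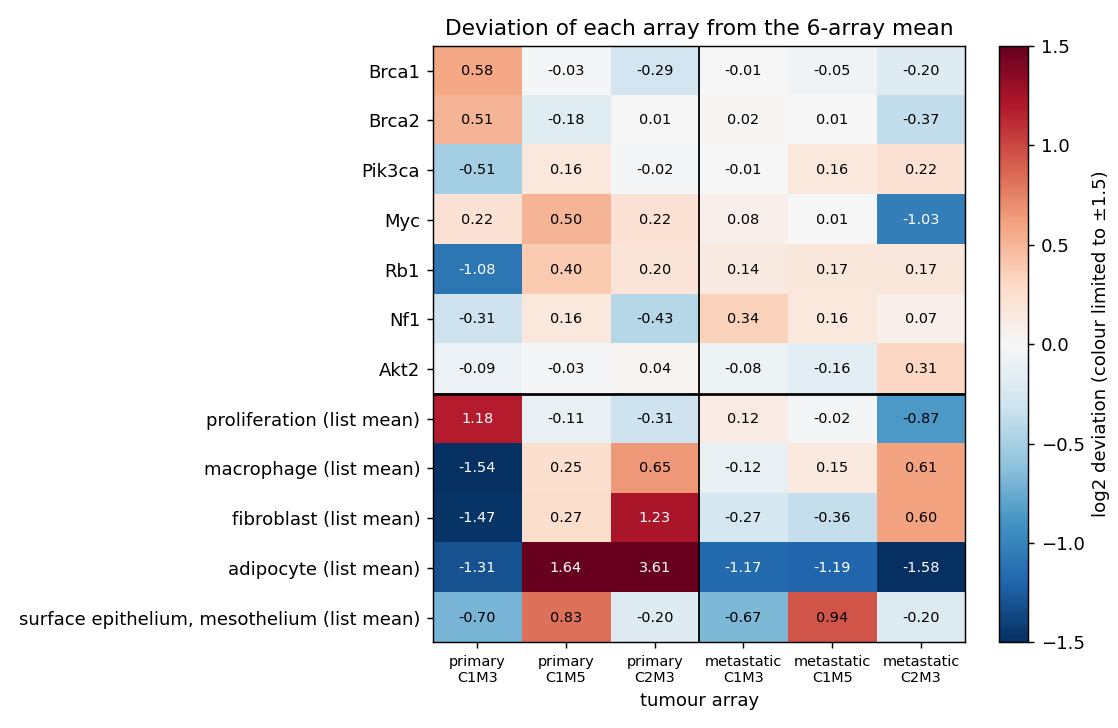
Log2 deviation of each array from the 6-array mean for the 7 driver genes (upper rows) and for the mean of 5 gene lists (lower rows), with colour limited to ±1.5. In the primary tumour of C1M3 Brca1 (0.58) and Brca2 (0.51) lie above the mean with the proliferation list (1.18), while Pik3ca (-0.51) and Rb1 (-1.08) lie below it with the macrophage (-1.54) and fibroblast (-1.47) lists.

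Among themselves the members fell into few patterns over the 6 arrays, given as descriptions since the arrays are tumours of 3 mice. Pearson's r was 0.83 between Brca1 and Brca2, 0.94 between Pik3ca and Rb1, and -0.91 between Brca1 and Rb1. Over the 5 arrays without the primary tumour of C1M3 these became 0.20, 0.33 and 0.20, so each of these 3 rested on that tumour. Pik3ca and Brca2 had r = -0.93, and -0.75 without it, and Akt2 and Brca2 -0.65 and -0.84. Myc and Akt2 had r = -0.80, and -0.79 without that tumour. The metastatic tumour of C2M3 was lowest for Myc (7.28, others 8.32 to 8.82) and for Brca2 (6.04), and highest for Akt2 (12.52, others 12.05 to 12.24). Among the other arrays the lowest values of Myc (8.32) and Akt2 (12.05) fell on the same one, the C1M5 metastatic tumour. No r was computed without the C2M3 metastatic tumour, so neither pair with Akt2 is shown to hold beyond it. For Nf1 r lay between -0.47 (Brca2) and 0.57 (Pik3ca) over the 6 arrays, and its r with Brca1 went from -0.19 to 0.91 without the primary tumour of C1M3.

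The genes most like each member over the 6 arrays were sought among at least 5768 named genes above the median level and median SD, a search in which high r values arise for any gene with 6 points. For Brca1 they were Kif2c, Stip1 and Car9 (r = 0.995 to 0.996), and for Brca2 Chrac1, Nup54 and Naa16 (0.996 to 0.9995). Kif2c encodes a mitotic kinesin, and Car9 a carbonic anhydrase known as a hypoxia marker. For Pik3ca they were Ccl12, Timm17b and Parva (0.994 to 0.995) and for Akt2 Serpinh1, Fmod and Gnpda1 (0.989 to 0.991). For Myc they were Neurl1b, Cfl1 and Fos (0.988 to 0.993), of which Fos is an immediate early gene. Fos read 5.42 and 5.38 in the C1M3 primary and metastatic tumour, 5.53 and 5.42 in C1M5, and 5.42 and 4.95 in C2M3. Its probe set was dim, below the brightest background control probe set in every array but the C1M3 metastatic tumour (5.38 against 5.31). Ccl12 (4.43 to 5.54) lay below that control in every array, and Fmod, Kif2c and Chrac1 in most arrays. For Rb1 they were Araf, Gmip and Castor2 (each 0.998), and for Nf1 Slc4a8, Creb3l2 and Dennd10 (0.983 to 0.993). Araf, a RAF kinase gene, had 7.31 in the primary tumour of C1M3 and 8.59 to 8.94 elsewhere. Some values are exactly equal between arrays, among them Myc in the primary tumours of C1M3 and C2M3 and Rb1 in the C1M5 and C2M3 metastatic tumours.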

How the data were processed

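RNA of 3 primary and 3 metastatic tumours was measured on Affymetrix arrays. The authors deposited log2 intensities of probe sets, made with RMA (background correction, quantile normalization and a summary over probes) and Transcriptome Analysis Console, per the submitters' processing notes, which give no versions. Of 65956 probe sets that are not controls, 30604 carried 1 gene symbol; 827 symbols were updated through the Entrez identifier with a RefSeq table of GRCm38.p6, and the probe set with the highest mean was kept per gene, which gave 30142 genes. limma 3.58.1 (R 4.3.3) compared the groups (tissue as the only term, two-sided, Benjamini-Hochberg over all genes, threshold 0.05), tested on simulated data. The donor label pairs the tumours of a mouse; deviations from group means correlated across genes with r = -0.05, 0.35 and 0.07 in C1M3, C1M5 and C2M3. The mouse as a block was an alternative, as were leaving out arrays or mice, centring, array weights, a filter on dim genes and averaged probe sets. Named genes are the members, up to 3 genes per pathway list with the largest difference and a mean above the median in the higher group, and the 3 genes most correlated with each member; predicted genes, microRNAs, small nucleolar RNAs, antigen receptor segments and olfactory or vomeronasal genes were left out of the last. The members and lists were chosen with earlier results of these data known. Of the 9 marker lists, T cell, B cell, smooth muscle, endothelial and granulosa, theca and luteal genes had median differences of 0.04, 0.10, -0.68, -0.37 and -0.27, macrophage 0.51, fibroblast -0.07, adipocyte -2.06 and surface epithelium and mesothelium 0.10. Scanner files were not used here.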

Additional observations from a re-analysis of the deposited data

How the results depend on the processing

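No gene, no member and no pathway gene passed with limma under any of the 14 alternatives run, and 88 of 97 refits of single members kept their direction (smallest adjusted p = 0.522, for Myc with array weights). That count includes refits that could not change direction. The mouse block and the filter on dim genes leave member differences as they were, and averaged probe sets change only that of Rb1. With the mouse as a block 0 genes passed, member SEs were 0.11 to 0.37 and no call changed. The 9 reversals fell on Brca1, Rb1 and Akt2. When single arrays were left out Brca1 ranged from -0.36 to 0.076, Rb1 from -0.13 to 0.60 and Akt2 from -0.090 to 0.15. Without both tumours of C1M3 Brca1 was 0.037 and Rb1 -0.12, and without both of C2M3 Akt2 was -0.057. Array weights gave -0.036 for Rb1 and -0.0069 for Akt2, with a weight of 0.26 for the primary tumour of C1M3, and centring gave -0.053 for Akt2. Centring moved the difference of every gene by the same -0.106, which took Akt2 from 0.053 to -0.053. The cause of the changes with weights was not tested. Genes at an unadjusted p under 0.05 ranged from 597 among genes above the median level (15071 genes tested) to 4091 without both tumours of C1M3, against 1269, and pathway genes from 3 without both tumours of C1M5 to 17 without both of C1M3 or with array weights, against 7. The counts over all genes were 940 without both tumours of C1M5 and 3180 with array weights. Brca1 lay below the level filter and has no value under it. Signal near background limits Brca1, the dim Rb1 probe sets and, in 2 of 6 arrays, Brca2. It also limits Ccl12, Fmod, Kif2c, Chrac1 and Fos among the genes most like a member.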
